A study of Mus musculus with 18 samples.

Results

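The cholesterol and fatty acid synthesis genes described here are 36 named genes: the enzymes that build cholesterol, the SREBP proteins and the proteins that control them or handle cholesterol, and the enzymes that build, lengthen and desaturate fatty acids. They were taken by gene symbol from the array, and a gene was represented by the brightest of the probe sets that carry its symbol and no other. By this rule 35 of the 36 were measured, out of 19938 genes on the array, and Acat2 was not analysed here. Of the 35, 17 belong to sterol synthesis, 7 to SREBP control and cholesterol handling, and 11 to fatty acid synthesis. The arrays measured total RNA of the mouse lung fibroblast line MLg 2908, which is a single line from newborn ddY mice with the genotype WT and no gender determined. Cells were plated on top of a collagen gel, and the cells found inside the gel (invading) were separated from those that stayed on top (non-invading). The invading and non-invading fractions were each sampled 5 times at 96 h and 4 times at 72 h after plating, 18 samples in all, each described as a biological replicate. All 18 samples share a treatment entry that names TGFB1 together with the invasion assay. Their titles mention no treatment and the study draws these cells as untreated, so the labels do not settle whether TGFB1 was added.

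Cholesterol is built from acetyl-CoA by way of mevalonate, squalene and lanosterol, and most genes of this path are known targets of the SREBP transcription factors. When sterols are scarce in the membrane of the endoplasmic reticulum, SCAP carries the SREBP proteins to the Golgi, where they are cut and released to the nucleus; when sterols are plentiful, the INSIG proteins hold them back. The same family of factors is known to drive fatty acid synthesis, and fibroblasts of the lung use both products for membranes and lipid droplets.

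The values are log2 signals, on which a difference of 1 is a 2-fold difference in signal. They ran from 2.94 to 14.7 over 35556 probe sets, with sample medians between 6.46 and 6.65 and correlations within groups between 0.991 and 0.996. Of 9 fibroblast markers 8 had a mean signal over 8 in each group, and only Thy1 lay under 7. The epithelial, endothelial and leukocyte markers (14 genes) had no mean over 8 in any group, and 12 to 13 of them lay under 7. Of 3 mesothelial markers Upk3b and Wt1 lay under 7 in every group, while Msln had a mean of 9.82 in invading and 10.45 in non-invading samples at 96 h and of 9.85 in invading and 10.56 in non-invading samples at 72 h. In bulk RNA fewer cells of a type and less RNA per cell cannot be told apart.

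Promoter windows of 300 bases, from 250 before to 50 after the start site in RefSeq (build GRCm38.p6), were available for 28 of the 35 genes, 36 windows in all. They were searched on both strands for TCACNCCAC (the sterol regulatory element core), CCAAT (the box of the factor NF-Y, known to act beside the SREBP proteins), GGGCGG (the box of SP1) and CACGTG (the E-box). CCAAT was found in 14 of the 17 windows of sterol synthesis genes, against 37.4% of all 32851 windows on the same build. It was found in 4 of the 8 windows of fatty acid synthesis genes and in 5 of the 11 windows of the control genes. Each of the 14 sterol genes with a window had it in at least 1, and the share by gene was not taken over all genes. GGGCGG was found in 14 of the 17 sterol windows and in 3 of the 8 fatty acid windows, against 35.7% of all windows, and CACGTG in 8 of the 36 windows of the members, against 7.15% of all. The sterol regulatory element core with these letters was found in 1 of the 36 windows, that of Hmgcs1, against 1.24% of all. A match is a string of letters and not a measured site, and the motifs do not overlap with each other in the windows printed. The sequences show the 250 bases before the start site, 5′ to 3′ on the strand of the gene, for the 7 sterol synthesis genes with a window that were lower at both times in the invading fraction, for Abca1, which was higher at both times, and for Insig1, which passed at neither. Capitals mark the letters of the motifs on either strand, so that ATTGG is CCAAT and CCGCCC is GGGCGG read from the other strand.
Hmgcs1 (chr13:119690101-119690350, plus strand): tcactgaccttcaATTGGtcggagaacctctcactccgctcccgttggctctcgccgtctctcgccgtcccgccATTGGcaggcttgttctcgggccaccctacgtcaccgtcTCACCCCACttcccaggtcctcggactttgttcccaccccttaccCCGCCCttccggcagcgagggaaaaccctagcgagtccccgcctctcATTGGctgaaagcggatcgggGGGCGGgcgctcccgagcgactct
Idi1 (chr13:8885356-8885605, plus strand): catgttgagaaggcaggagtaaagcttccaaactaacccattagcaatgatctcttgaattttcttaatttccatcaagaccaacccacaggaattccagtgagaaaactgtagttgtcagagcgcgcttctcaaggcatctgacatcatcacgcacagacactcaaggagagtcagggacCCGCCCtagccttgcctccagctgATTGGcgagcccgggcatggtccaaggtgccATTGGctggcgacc
Tm7sf2 (chr19:6067851-6068100, minus strand): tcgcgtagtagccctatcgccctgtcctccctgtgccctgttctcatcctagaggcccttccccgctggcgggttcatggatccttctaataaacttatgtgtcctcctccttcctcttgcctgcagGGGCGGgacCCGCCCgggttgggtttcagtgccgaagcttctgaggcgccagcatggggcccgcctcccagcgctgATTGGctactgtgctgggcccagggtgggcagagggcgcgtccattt
Msmo1 (chr8:64733579-64733828, minus strand): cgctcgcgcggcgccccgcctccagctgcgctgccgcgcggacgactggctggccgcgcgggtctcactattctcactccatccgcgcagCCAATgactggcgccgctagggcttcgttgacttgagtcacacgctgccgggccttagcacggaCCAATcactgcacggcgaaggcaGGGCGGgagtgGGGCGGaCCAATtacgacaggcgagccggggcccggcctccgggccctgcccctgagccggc
Nsdhl (chrX:72918271-72918520, plus strand): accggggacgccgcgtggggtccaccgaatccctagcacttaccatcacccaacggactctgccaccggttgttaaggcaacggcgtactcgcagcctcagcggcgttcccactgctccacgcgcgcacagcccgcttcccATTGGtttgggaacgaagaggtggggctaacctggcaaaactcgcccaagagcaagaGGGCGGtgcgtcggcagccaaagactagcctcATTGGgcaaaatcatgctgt
Hsd17b7 (chr1:169969206-169969455, minus strand): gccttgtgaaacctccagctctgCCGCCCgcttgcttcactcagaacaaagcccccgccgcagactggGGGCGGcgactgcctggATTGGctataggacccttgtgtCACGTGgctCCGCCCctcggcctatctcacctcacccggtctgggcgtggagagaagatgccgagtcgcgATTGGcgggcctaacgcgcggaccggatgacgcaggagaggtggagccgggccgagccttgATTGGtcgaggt
Sc5d (chr9:42264301-42264550, minus strand): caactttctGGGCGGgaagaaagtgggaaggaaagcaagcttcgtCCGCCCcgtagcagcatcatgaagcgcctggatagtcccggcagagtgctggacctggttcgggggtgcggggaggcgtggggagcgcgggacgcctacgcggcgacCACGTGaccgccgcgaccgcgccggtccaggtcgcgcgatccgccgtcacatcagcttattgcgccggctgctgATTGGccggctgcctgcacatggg
Insig1 (chr5:28071162-28071411, plus strand): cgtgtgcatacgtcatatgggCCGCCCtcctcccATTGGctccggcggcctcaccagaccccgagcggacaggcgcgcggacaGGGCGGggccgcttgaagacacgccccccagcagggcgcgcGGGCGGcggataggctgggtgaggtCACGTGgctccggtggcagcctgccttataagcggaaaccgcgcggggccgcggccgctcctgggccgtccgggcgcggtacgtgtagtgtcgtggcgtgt
Abca1 (chr4:53159896-53160145, minus strand): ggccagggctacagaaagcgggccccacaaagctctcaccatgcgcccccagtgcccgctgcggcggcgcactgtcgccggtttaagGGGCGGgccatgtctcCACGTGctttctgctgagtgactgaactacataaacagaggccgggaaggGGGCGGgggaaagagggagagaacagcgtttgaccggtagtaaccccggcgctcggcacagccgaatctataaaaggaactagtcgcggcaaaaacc

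In the invading fraction 9 of the 17 genes of cholesterol synthesis were lower than in the non-invading fraction at both times. They were Hmgcs1, Idi1, Fdps, Sqle, Tm7sf2, Msmo1, Nsdhl, Hsd17b7 and Sc5d, with ratios between 0.452 and 0.733. The fatty acid enzymes Elovl6, Scd1, Scd2 and Fads2 were also lower at both times, and the cholesterol exporter Abca1 and the transcription factor gene Srebf1 were higher. At 96 h, 18 of the 35 genes were lower and 4 higher at an adjusted p under 0.10 in limma, where 14.7% of all genes were lower and 16.7% higher. At 72 h, 21 were lower and 2 higher, beside 13.5% and 13% of all genes. Of the members, 15 were lower at both times, against 9.6% of all genes, and 2 were higher at both times, against 8.39%. The invading samples lay below every non-invading sample for 10 members at 96 h, where this held for 8.8% of all genes, and for 19 members at 72 h, against 12.3%. They lay above every non-invading sample for 3 members at 96 h and 2 at 72 h, beside 9.35% and 12.5% of all genes. The median log2 ratio of the 35 genes was -0.23 at 96 h and -0.30 at 72 h, and that of all genes was 0.02 and 0.04. With centring of the arrays on their medians instead, the median of all genes was 0.14 at 96 h and 0.12 at 72 h, and 7 members were higher and 16 lower at 96 h and 3 higher and 17 lower at 72 h. The 3 members added as higher at 96 h were Ebp, Scap and Elovl5, and of all genes called at 96 h the share that was higher was then 85.2% and not 53.1%.

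**Figure D1:**
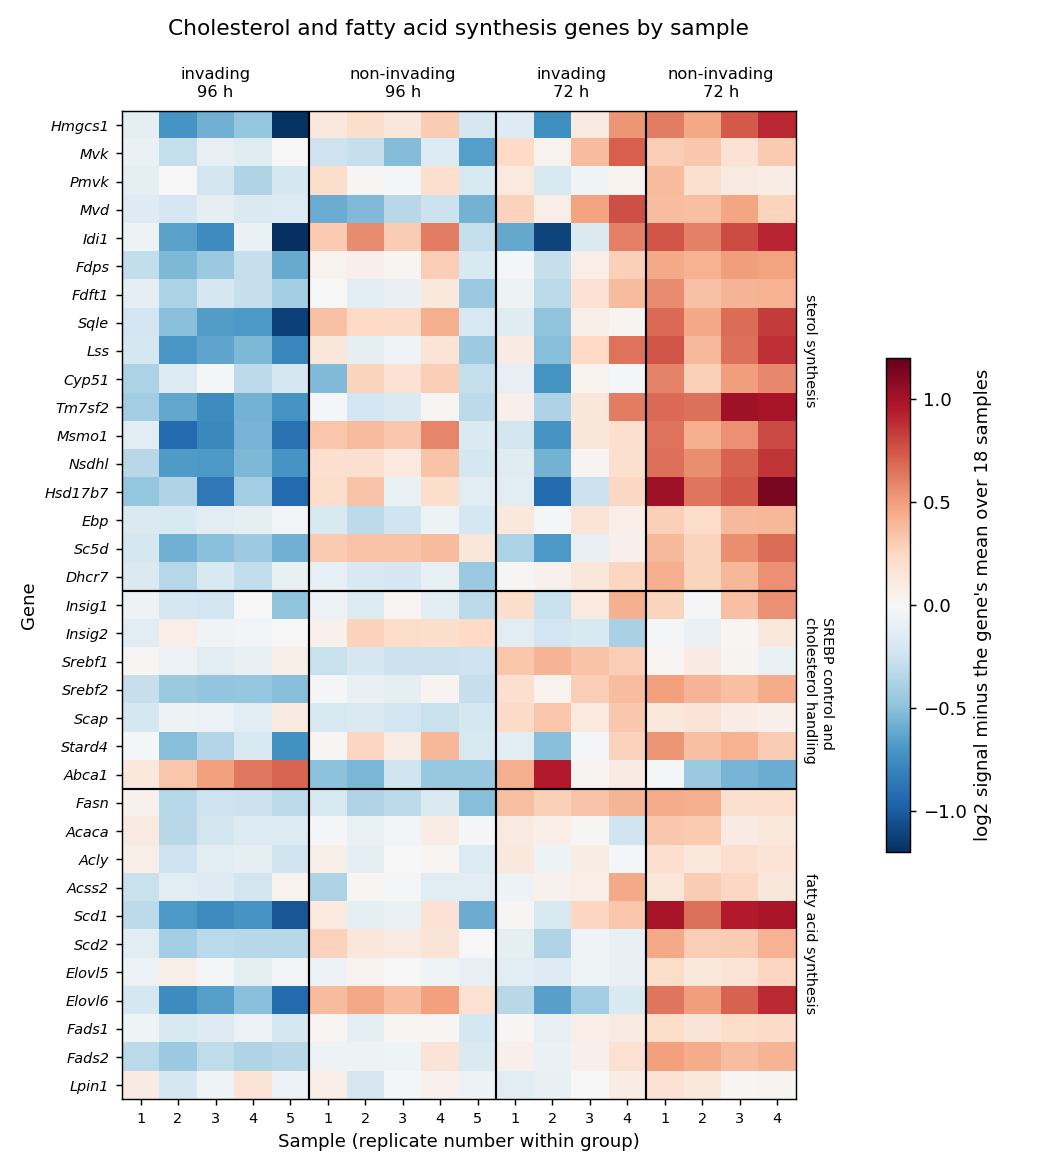
Each row is a gene and each column a sample, in the order invading 96 h, non-invading 96 h, invading 72 h and non-invading 72 h, and the colour is the log2 signal minus the mean of that gene over 18 samples. The sterol synthesis rows are red in the non-invading samples of 72 h and blue in most invading samples of 96 h, whereas Abca1 runs the other way between the fractions.

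**Figure D2:**
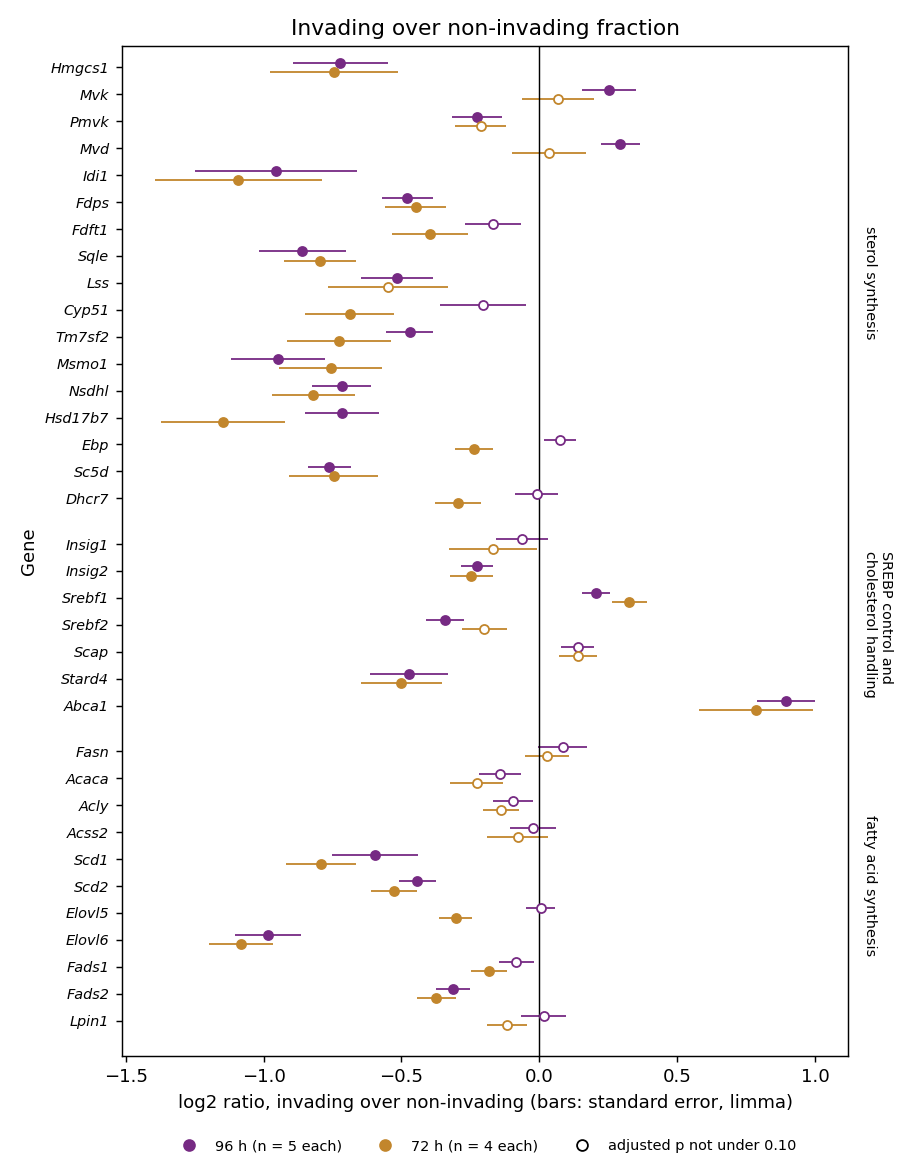
Points give the log2 ratio of invading over non-invading samples for each gene at 96 h (n = 5 each) and 72 h (n = 4 each), bars the standard error from limma, and open points an adjusted p that is not under 0.10. Most sterol synthesis genes lie left of 0 at both times, Mvk and Mvd do not, and in the fatty acid branch 4 genes are filled at both times.

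The path opens with Hmgcs1, which makes HMG-CoA from acetyl-CoA units. At 96 h Hmgcs1 read 10.11, 9.51, 9.64, 9.76 and 9.03 in the invading samples, against 10.34, 10.42, 10.36, 10.53 and 10.01 in the non-invading samples. At 72 h it read 10.06, 9.48, 10.32 and 10.75 in the invading samples, against 10.83, 10.68, 10.95 and 11.13 in the non-invading samples. The invading samples were low, with some overlap at both times, and the log2 ratio was -0.72 ± 0.17 (SE, adjusted p = 0.0094) at 96 h and -0.74 ± 0.23 (SE, adjusted p = 0.052) at 72 h. The kinase Mvk and the decarboxylase Mvd act on mevalonate and its phosphates, and neither was lower in the invading fraction. Mvd had 8.29, 8.24, 8.32, 8.27 and 8.28 in the invading samples, against 7.84, 7.92, 8.11, 8.18 and 7.88 in the non-invading samples at 96 h. It had 8.72, 8.52, 8.93 and 9.22 in the invading samples, against 8.81, 8.80, 8.92 and 8.71 in the non-invading samples at 72 h. At 96 h every invading sample was above every non-invading one (log2 ratio 0.29 ± 0.07 SE, adjusted p = 0.0102), and at 72 h the fractions overlapped, with the invading samples spread on both sides (log2 ratio 0.04 ± 0.14 SE, adjusted p = 0.887). For Mvk the 96 h samples gave 9.03, 8.81, 9.0, 8.96 and 9.10 in the invading samples, against 8.85, 8.82, 8.58, 8.94 and 8.44 in the non-invading samples. At 72 h they gave 9.34, 9.14, 9.48 and 9.82 in the invading samples, against 9.40, 9.42, 9.27 and 9.42 in the non-invading samples. The ratio of Mvk was 0.25 ± 0.10 (SE, adjusted p = 0.0783) at 96 h, with overlap, and 0.07 ± 0.13 (SE, adjusted p = 0.756) at 72 h. Pmvk, the kinase between them, had a log2 ratio of -0.23 ± 0.09 (SE, adjusted p = 0.0895) at 96 h and -0.21 ± 0.09 (SE, adjusted p = 0.143) at 72 h. Among these genes the call of Hmgcs1 at 72 h was lost without invading replicate 1 or non-invading replicates 3 or 4 (adjusted p = 0.109 to 0.126). The call of Mvk at 96 h was lost without invading replicates 1, 3, 4 or 5 or non-invading replicates 3 or 5, with an adjusted p of 0.119 to 0.163, and that of Pmvk without any sample other than invading replicates 1 and 2 and non-invading replicate 5 (0.111 to 0.191).

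Idi1 turns isopentenyl diphosphate into the isomer that primes chain growth. Its 96 h values were 9.50, 8.92, 8.80, 9.48 and 7.84 in the invading samples, against 9.87, 10.13, 9.87, 10.17 and 9.28 in the non-invading samples. At 72 h they were 8.95, 8.45, 9.38 and 10.16 in the invading samples, against 10.32, 10.17, 10.34 and 10.48 in the non-invading samples. Invading samples were lower at both times, but 2 of the 5 at 96 h stood above the lowest non-invading sample, and the invading samples were widely spread at both times. The log2 ratio of Idi1 was -0.96 ± 0.29 (SE, adjusted p = 0.0321) at 96 h and -1.09 ± 0.30 (SE, adjusted p = 0.0332) at 72 h, and its dimmer probe set gave -1.01 and -1.09. Fdps, which joins the units to farnesyl diphosphate, was lower without overlap at both times, with ratios of -0.48 ± 0.09 (SE, adjusted p = 0.00307) at 96 h and -0.45 ± 0.11 (SE, adjusted p = 0.0207) at 72 h. Fdft1, squalene synthase, had -0.17 ± 0.10 (SE, adjusted p = 0.248) at 96 h and -0.40 ± 0.14 (SE, adjusted p = 0.0755) at 72 h. Sqle, the epoxidase that commits squalene to sterols and is known as a control point, read 9.98, 9.70, 9.53, 9.52 and 9.08 in the invading samples, against 10.56, 10.45, 10.44, 10.64 and 10.02 in the non-invading samples at 96 h. At 72 h Sqle read 10.06, 9.72, 10.28 and 10.24 in the invading samples, against 10.88, 10.67, 10.88 and 11.05 in the non-invading samples. Every invading sample lay below every non-invading sample of the same time, and the ratio of invading to non-invading signal was 0.551 at 96 h and 0.577 at 72 h (adjusted p = 0.0024 and 0.00399). Lss closes the ring of epoxysqualene to lanosterol. In Lss, 96 h gave 8.84, 8.36, 8.43, 8.51 and 8.27 in the invading samples, against 9.19, 8.94, 9.02, 9.22 and 8.62 in the non-invading samples. At 72 h, Lss gave 9.15, 8.55, 9.30 and 9.71 in the invading samples, against 9.81, 9.45, 9.72 and 9.93 in the non-invading samples. The fractions overlapped at both times, at 96 h through a single non-invading sample, and the ratio was -0.52 ± 0.13 (SE, adjusted p = 0.0126) at 96 h and -0.55 ± 0.22 (SE, adjusted p = 0.11) at 72 h. The 72 h ratio of Lss ran from -0.727 to -0.339 when 1 sample was left out. It passed without invading replicate 4 (adjusted p = 0.0358) or non-invading replicate 2 (0.0977), and also in 1 fit over all 18 samples (0.0459), when dim probe sets were filtered out (0.0791) and when only probe sets with 1 symbol (0.055) or no unnamed low-numbered ones (0.0733) were tested. The call of Fdft1 at 72 h was lost without any sample other than invading replicates 3 and 4 (adjusted p = 0.103 to 0.161), and at 96 h Fdft1 passed without non-invading replicate 5 (-0.25, adjusted p = 0.0425). A second, dimmer probe set of Fdft1 gave -0.25 (adjusted p = 0.102) at 96 h and -0.47 (adjusted p = 0.0401) at 72 h.

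From lanosterol onwards the enzymes trim methyl groups and move double bonds. Hsd17b7 reduces the ketone left when a methyl group has been removed, and it gave the lowest ratio of any member at 72 h. Its signal at 96 h was 8.49, 8.59, 8.09, 8.54 and 8.02 in the invading samples, against 9.16, 9.29, 8.87, 9.16 and 8.83 in the non-invading samples. In the 72 h samples it was 8.83, 8.03, 8.70 and 9.20 in the invading samples, against 9.97, 9.59, 9.69 and 10.08 in the non-invading samples. The fractions did not overlap at either time, with a log2 ratio of -0.72 ± 0.13 (SE, adjusted p = 0.00249) at 96 h and -1.15 ± 0.22 (SE, adjusted p = 0.00815) at 72 h. Nsdhl, the dehydrogenase of the same step, had 10.55, 10.19, 10.19, 10.34 and 10.17 in the invading samples, against 11.08, 11.07, 11.00, 11.21 and 10.67 in the non-invading samples at 96 h. Nsdhl had 10.73, 10.31, 10.91 and 11.07 in the invading samples, against 11.54, 11.44, 11.58 and 11.74 in the non-invading samples at 72 h. It too was lower without overlap, by 0.72 at 96 h and 0.82 at 72 h on the log2 scale. Msmo1, the oxygenase that starts the step, measured 10.68, 9.87, 10.03, 10.25 and 9.91 in the invading samples, against 11.13, 11.18, 11.13, 11.40 and 10.63 in the non-invading samples at 96 h. It measured 10.58, 10.10, 10.94 and 11.01 in the invading samples, against 11.46, 11.25, 11.36 and 11.59 in the non-invading samples at 72 h. At 96 h invading replicate 1 stood just above the lowest non-invading sample and at 72 h the fractions were apart, and the log2 ratios were -0.95 ± 0.17 (SE, adjusted p = 0.00196) and -0.76 ± 0.19 (SE, adjusted p = 0.0216) at 96 and 72 h. Sc5d, which sets the double bond of the second ring, read 9.66, 9.30, 9.36, 9.44 and 9.29 in the invading samples, against 10.19, 10.21, 10.21, 10.25 and 10.01 in the non-invading samples at 96 h. At 72 h Sc5d read 9.49, 9.18, 9.78 and 9.93 in the invading samples, against 10.26, 10.13, 10.42 and 10.54 in the non-invading samples. With non-overlapping fractions and narrow groups it had the lowest adjusted p of the members at 96 h, 9.56e-05, at a log2 ratio of -0.76, and -0.75 at 72 h (adjusted p = 0.0126).

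Tm7sf2, a sterol reductase, was also lower without overlap at both times. Tm7sf2 had 7.66, 7.45, 7.32, 7.50 and 7.37 in the invading samples, against 8.06, 7.84, 7.89, 8.10 and 7.75 in the non-invading samples at 96 h. At 72 h the values of Tm7sf2 were 8.13, 7.70, 8.20 and 8.69 in the invading samples, against 8.75, 8.73, 9.09 and 9.06 in the non-invading samples. Its log2 ratio was -0.47 ± 0.08 (SE, adjusted p = 0.002) at 96 h and -0.73 ± 0.19 (SE, adjusted p = 0.0262) at 72 h. Other late enzymes passed at 72 h but not at 96 h. Dhcr7, the reductase of the last step, gave 9.02, 8.85, 9.0, 8.90 and 9.10 in the invading samples, against 9.09, 9.0, 8.99, 9.09 and 8.74 in the non-invading samples at 96 h. Its 72 h values were 9.20, 9.23, 9.32 and 9.45 in the invading samples, against 9.62, 9.45, 9.59 and 9.73 in the non-invading samples. The fractions overlapped at 96 h (log2 ratio -0.01 ± 0.08 SE, adjusted p = 0.943) and were apart at 72 h (-0.30 ± 0.08 SE, adjusted p = 0.0354). The isomerase Ebp had ratios of 0.08 ± 0.06 (SE, adjusted p = 0.372) at 96 h and -0.24 ± 0.07 (SE, adjusted p = 0.0436) at 72 h, and Cyp51, which removes the first methyl group of lanosterol, had -0.20 ± 0.16 (SE, adjusted p = 0.373) at 96 h and -0.69 ± 0.16 (SE, adjusted p = 0.0179) at 72 h. Without non-invading replicate 1, which read 7.43, the 96 h ratio of Cyp51 was -0.33 and passed (adjusted p = 0.0733). The call of Ebp at 72 h was lost without invading replicate 2 or non-invading replicates 3 or 4 (adjusted p = 0.108 to 0.113).

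**Figure D3:**
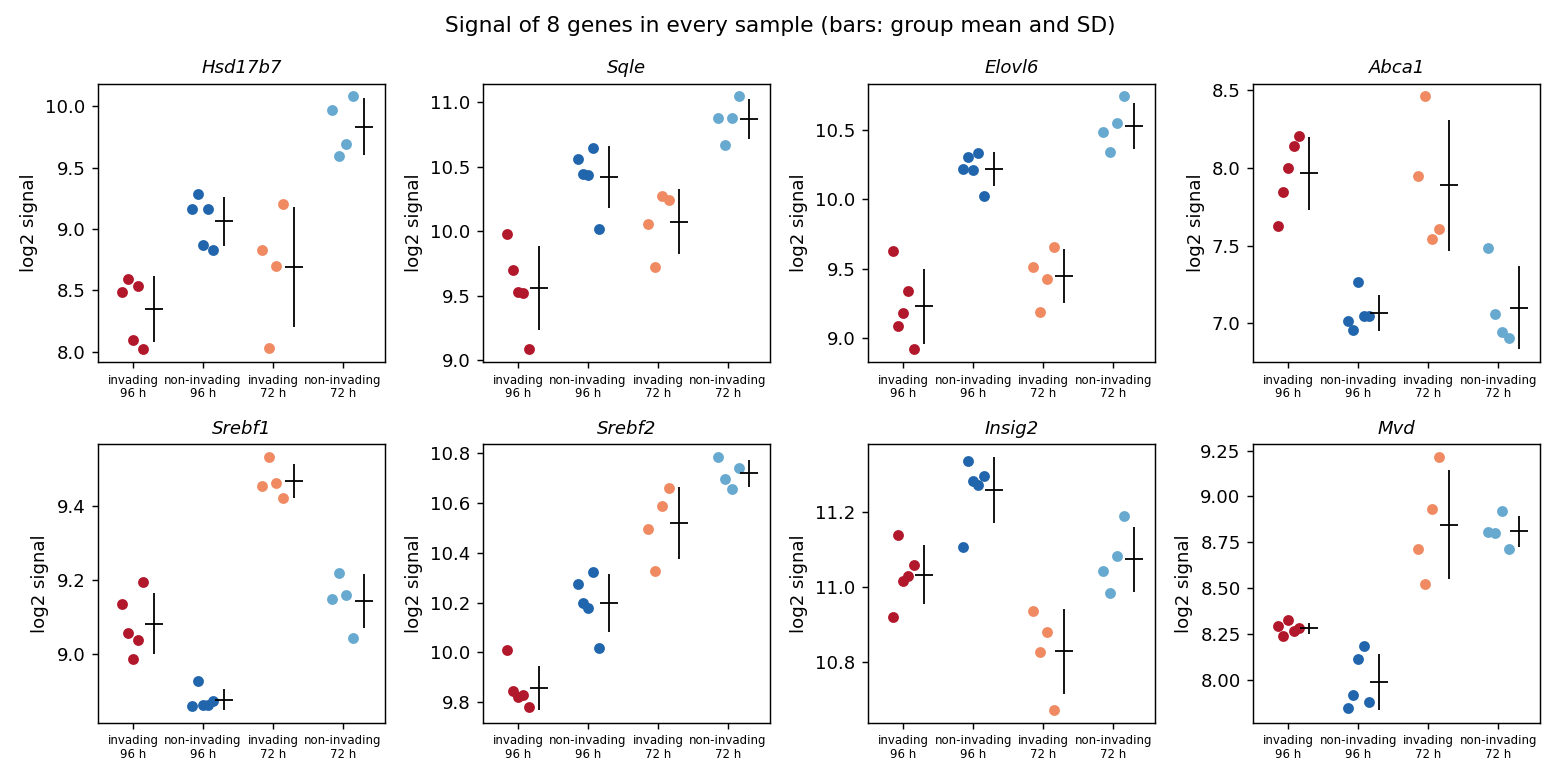
Each panel gives the log2 signal of a gene in every sample, with the group mean and SD beside the points, for invading and non-invading samples at 96 h (n = 5 each) and at 72 h (n = 4 each). Hsd17b7, Sqle and Elovl6 are lower and Abca1 and Srebf1 higher in the invading samples of each time without overlap, and Mvd and Srebf2 are lower at 96 h than at 72 h in both fractions.

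The genes that control the path gave calls in both directions. Srebf1 encodes the SREBP forms known mainly for fatty acid genes, and it was higher in the invading fraction. At 96 h Srebf1 read 9.13, 9.06, 8.99, 9.04 and 9.20 in the invading samples, against 8.86, 8.93, 8.86, 8.86 and 8.87 in the non-invading samples. At 72 h Srebf1 read 9.45, 9.53, 9.46 and 9.42 in the invading samples, against 9.15, 9.22, 9.16 and 9.04 in the non-invading samples. All invading samples were above all non-invading samples of the same time, with small differences of 0.21 (standard error 0.05, adjusted p = 0.0125) at 96 h and 0.33 (standard error 0.06, adjusted p = 0.0079) at 72 h. Srebf2, which encodes the form known mainly for sterol genes, went the other way at 96 h. Its 96 h signals were 10.01, 9.84, 9.82, 9.83 and 9.78 in the invading samples, against 10.28, 10.20, 10.18, 10.32 and 10.02 in the non-invading samples. At 72 h they were 10.50, 10.33, 10.59 and 10.66 in the invading samples, against 10.79, 10.70, 10.66 and 10.74 in the non-invading samples. The invading samples were all lower at 96 h (log2 ratio -0.34 ± 0.07 SE, adjusted p = 0.00357), while at 72 h 1 invading sample reached the non-invading range (-0.20 ± 0.08 SE, adjusted p = 0.12). Without that time's invading replicate 4 the ratio of Srebf2 was -0.25 and passed (adjusted p = 0.0731), as it did in 1 fit over all 18 samples (0.0667). Scap, the escort of the SREBP proteins, had a ratio of 0.14 ± 0.06 (SE, adjusted p = 0.121) at 96 h and 0.14 ± 0.07 (SE, adjusted p = 0.188) at 72 h. It passed as higher without invading replicate 1 at 96 h (adjusted p = 0.0542) and without invading replicate 3 at 72 h (0.0871).

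The INSIG genes, which encode the proteins that retain SCAP, did not give the same calls. Insig1, itself a known SREBP target, measured 10.35, 10.20, 10.17, 10.40 and 9.92 in the invading samples, against 10.34, 10.24, 10.43, 10.28 and 10.08 in the non-invading samples at 96 h. At 72 h Insig1 measured 10.62, 10.14, 10.52 and 10.83 in the invading samples, against 10.67, 10.39, 10.77 and 10.95 in the non-invading samples. The fractions overlapped at both times, and the log2 ratio was -0.06 ± 0.09 (SE, adjusted p = 0.671) at 96 h and -0.17 ± 0.16 (SE, adjusted p = 0.505) at 72 h. Insig2, which is not known to depend on SREBP in the same way, gave 10.92, 11.14, 11.02, 11.03 and 11.06 in the invading samples, against 11.11, 11.34, 11.28, 11.27 and 11.30 in the non-invading samples at 96 h. At 72 h it gave 10.94, 10.83, 10.88 and 10.67 in the invading samples, against 11.04, 10.98, 11.08 and 11.19 in the non-invading samples. At both times Insig2 was lower in the invading fraction, with 1 non-invading sample among the invading ones at 96 h and no overlap at 72 h, by 0.23 (adjusted p = 0.0159) and 0.25 (adjusted p = 0.0545). The 72 h call of Insig2 was lost without invading replicates 2 or 4 or non-invading replicates 3 or 4 (adjusted p = 0.11 to 0.132), and the 96 h call when arrays were centred on their median (adjusted p = 0.152).

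Abca1 pumps cholesterol out of the cell and is a known target of the sterol sensor LXR. At 96 h Abca1 had 7.63, 7.84, 8.0, 8.14 and 8.20 in the invading samples, against 7.02, 6.96, 7.27, 7.05 and 7.05 in the non-invading samples. At 72 h Abca1 had 7.95, 8.46, 7.54 and 7.60 in the invading samples, against 7.49, 7.06, 6.95 and 6.91 in the non-invading samples. Each invading sample was above each non-invading sample of its time, and the ratio was 1.86 at 96 h (log2 ratio 0.89 ± 0.11 SE, adjusted p = 0.000204) and 1.73 at 72 h (log2 ratio 0.79 ± 0.21 SE, adjusted p = 0.0275). The 72 h invading sample with the highest Abca1, replicate 2, was also the lowest of its group for 16 of the 17 sterol synthesis genes and for 8 of the 11 fatty acid genes. Stard4, a protein that carries cholesterol between membranes, was lower in the invading fraction, with -0.47 ± 0.14 (SE, adjusted p = 0.0292) at 96 h and -0.50 ± 0.15 (SE, adjusted p = 0.0409) at 72 h.

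In the fatty acid branch the enzymes that make palmitate gave no call between the fractions. Acly and Acss2 supply acetyl-CoA, Acaca makes malonyl-CoA and Fasn joins these units. The log2 ratio of Fasn was 0.08 at 96 h and 0.03 at 72 h, that of Acaca -0.14 and -0.23, that of Acly -0.10 and -0.14, and that of Acss2 -0.02 and -0.08. Their adjusted p lay between 0.129 and 0.883. The samples of Fasn overlapped, with 11.06, 10.67, 10.76, 10.76 and 10.68 in the invading samples, against 10.83, 10.65, 10.70, 10.84 and 10.50 in the non-invading samples at 96 h. At 72 h Fasn had 11.37, 11.29, 11.35 and 11.42 in the invading samples, against 11.46, 11.44, 11.21 and 11.21 in the non-invading samples. Without invading replicate 1 Acaca passed at 96 h (-0.21, adjusted p = 0.0228). A second, dimmer probe set of Acaca was lower at 96 h (log2 ratio -0.25, adjusted p = 0.0372). Lpin1, a phosphatidate phosphatase, had ratios of 0.02 at 96 h and -0.12 at 72 h, neither past the test.

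Several of the enzymes that lengthen and desaturate fatty acids were lower in the invading fraction. Elovl6 lengthens palmitate, and at 96 h it read 9.63, 9.09, 9.18, 9.34 and 8.92 in the invading samples, against 10.22, 10.30, 10.21, 10.33 and 10.02 in the non-invading samples. At 72 h Elovl6 read 9.51, 9.19, 9.43 and 9.65 in the invading samples, against 10.48, 10.34, 10.55 and 10.74 in the non-invading samples. The fractions did not overlap, and the ratio of invading to non-invading signal was 0.505 at 96 h (log2 ratio -0.98 ± 0.12 SE, adjusted p = 0.000221) and 0.472 at 72 h (log2 ratio -1.08 ± 0.12 SE, adjusted p = 0.000796). Its relative Elovl5, which lengthens polyunsaturated chains, had 10.43, 10.57, 10.48, 10.39 and 10.46 in the invading samples, against 10.43, 10.54, 10.50, 10.44 and 10.40 in the non-invading samples at 96 h. At 72 h it had 10.37, 10.35, 10.45 and 10.40 in the invading samples, against 10.72, 10.63, 10.67 and 10.76 in the non-invading samples. Elovl5 overlapped fully at 96 h (0.01 ± 0.05 SE, adjusted p = 0.956) and was lower without overlap at 72 h (-0.30 ± 0.06 SE, adjusted p = 0.00876). Scd1 and Scd2 set the double bond of oleate. For Scd1 the values were 9.21, 8.84, 8.77, 8.81 and 8.50 in the invading samples, against 9.64, 9.41, 9.44, 9.70 and 8.93 in the non-invading samples at 96 h. For Scd1 at 72 h they were 9.54, 9.33, 9.78 and 9.86 in the invading samples, against 10.51, 10.18, 10.48 and 10.51 in the non-invading samples. Invading samples were lower at both times, with overlap at 96 h through invading replicate 1 and non-invading replicate 5, and the log2 ratio was -0.60 ± 0.16 (SE, adjusted p = 0.0151) at 96 h and -0.79 ± 0.13 (SE, adjusted p = 0.00356) at 72 h. Scd2 gave 11.82, 11.53, 11.62, 11.61 and 11.60 in the invading samples, against 12.22, 12.08, 12.05, 12.09 and 11.95 in the non-invading samples at 96 h. At 72 h Scd2 gave 11.82, 11.58, 11.90 and 11.85 in the invading samples, against 12.40, 12.24, 12.25 and 12.36 in the non-invading samples. It was lower without overlap at both times, by 0.44 and 0.53 (adjusted p = 0.000818 and 0.00351).

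The front-end desaturases Fads1 and Fads2 act on polyunsaturated fatty acids. Fads2 read 11.18, 11.06, 11.20, 11.15 and 11.18 in the invading samples, against 11.45, 11.44, 11.46, 11.66 and 11.33 in the non-invading samples at 96 h. At 72 h Fads2 read 11.57, 11.42, 11.57 and 11.69 in the invading samples, against 11.99, 11.96, 11.88 and 11.92 in the non-invading samples. Its fractions did not overlap, and the log2 ratio was -0.31 ± 0.06 (SE, adjusted p = 0.00387) at 96 h and -0.37 ± 0.07 (SE, adjusted p = 0.00746) at 72 h. Fads1 read 11.98, 11.85, 11.88, 11.96 and 11.82 in the invading samples, against 12.06, 11.92, 12.05, 12.05 and 11.82 in the non-invading samples at 96 h. At 72 h Fads1 read 12.05, 11.94, 12.11 and 12.14 in the invading samples, against 12.25, 12.19, 12.26 and 12.27 in the non-invading samples. The difference in Fads1 was smaller, with -0.08 ± 0.06 (SE, adjusted p = 0.366) at 96 h and -0.18 ± 0.07 (SE, adjusted p = 0.0824) at 72 h, and its 72 h call was lost without any sample other than invading replicates 3 and 4 (adjusted p = 0.108 to 0.194).

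The sterol branch was further below the non-invading level than the fatty acid branch. Of its 17 genes 11 were lower and 2 higher at 96 h and 13 lower and 0 higher at 72 h, and of the 11 fatty acid genes 4 were lower at 96 h and 6 at 72 h, with 0 higher. The median log2 ratio was -0.48 for sterol genes and -0.10 for fatty acid genes at 96 h, and -0.69 and -0.23 at 72 h. With arrays centred on their median the values were -0.36 and 0.02 at 96 h and -0.61 and -0.15 at 72 h, so the sign of the fatty acid median at 96 h depended on the scaling. After each gene was set to its mean over 18 samples, the median over the sterol genes ran between -0.60 and -0.17 for invading and between -0.21 and 0.21 for non-invading samples at 96 h, so that 1 invading sample passed the lowest non-invading one. At 72 h it ran between -0.48 and 0.26 for invading and between 0.39 and 0.67 for non-invading samples, without overlap. The fatty acid median ran between -0.34 and -0.07 for invading and between -0.13 and 0.06 for non-invading samples at 96 h, and between -0.09 and 0.09 for invading and between 0.22 and 0.32 for non-invading samples at 72 h. The median log2 ratio of the sterol genes was lower than that of the fatty acid genes by 0.382 at 96 h and by 0.46 at 72 h. Without invading replicate 2 this difference was -0.256 at 72 h. The sterol minus fatty acid median was also taken in each sample. Its group median was -0.168 in invading and 0.099 in non-invading samples at 96 h, and -0.014 and 0.3 at 72 h. At 96 h it ran between -0.364 and -0.105 for invading and between -0.085 and 0.155 for non-invading samples. At 72 h the fractions overlapped, with values between -0.398 and 0.173 for invading and between 0.081 and 0.44 for non-invading samples. The pooled SD of this sample value within groups was 0.161. No test was made of these medians, since they are taken over chosen genes.

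**Figure D4:**
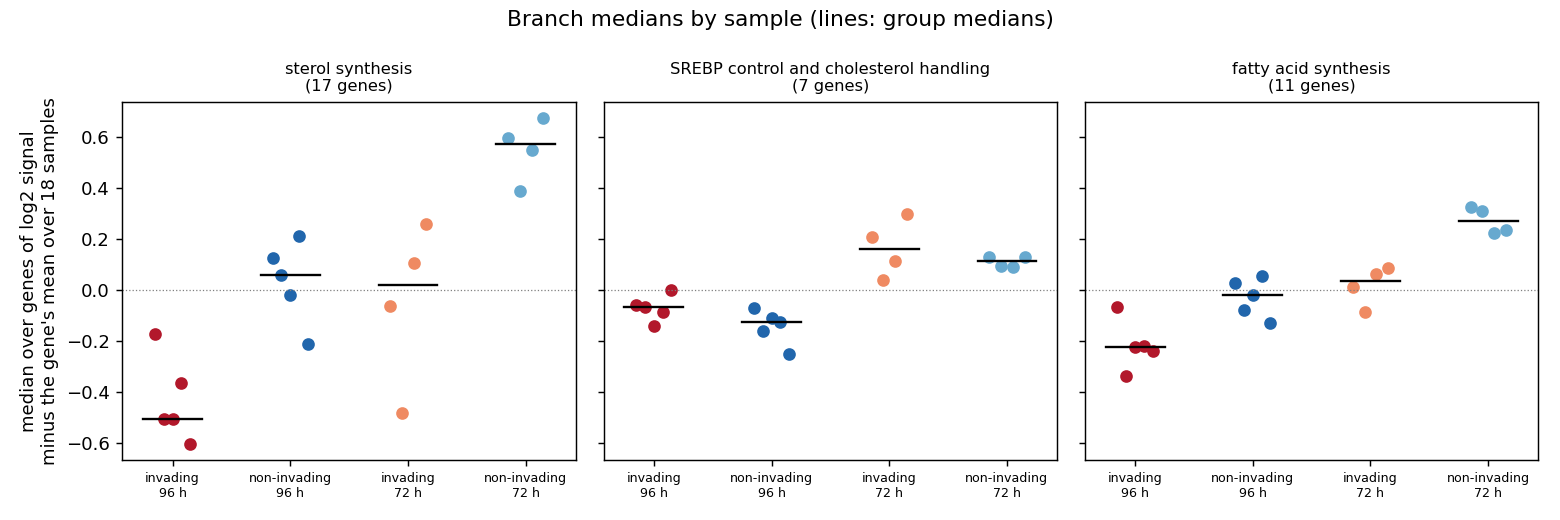
Each point is a sample, and the vertical axis is the median over the genes of a branch of the log2 signal minus the mean of each gene over 18 samples, with group medians as lines. The sterol synthesis medians of the non-invading samples at 72 h (0.39 to 0.67) lie above all others, and the invading samples of 96 h have the lowest group median in the sterol and fatty acid panels.

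Between the times, most of the genes were lower at 96 h than at 72 h in both fractions. In the invading fraction 22 of the 35 genes were lower at 96 h and 1 was higher, where 16.7% of all genes were lower and 18.2% higher. In the non-invading fraction 27 were lower and 1 higher, where 12.2% of all genes were lower and 15.4% higher. Every 96 h sample lay below every 72 h sample for 11 members in the invading fraction, where this held for 10.3% of all genes, and for 25 members in the non-invading fraction, against 7.8%. The reverse held for 0 members in each, against 13.3% and 12.2% of all genes. Lower in both fractions were 21 members, against 7.77% of all genes, and the 1 higher member was Insig2 in both, against 12.5% of all genes higher in both. The median log2 ratio of the members was -0.33 in the invading and -0.42 in the non-invading fraction, against -0.03 and -0.02 over all genes. These comparisons share their samples with the comparisons of the fractions, and time cannot be told apart from any array batch that went with it. The label and file information used here names no array batch.

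Scd1 had the lowest ratio in both fractions, and its signal at 96 h was 0.574 times that of 72 h in the invading fraction (log2 ratio -0.80 ± 0.16 SE, adjusted p = 0.00101) and 0.501 times in the non-invading fraction (-0.997 ± 0.16 SE, adjusted p = 0.000274). Tm7sf2 came next, with -0.72 ± 0.15 (SE, adjusted p = 0.00139) in the invading and -0.98 ± 0.15 (SE, adjusted p = 0.000185) in the non-invading fraction. For both genes every 96 h sample lay below every 72 h sample of its fraction. Srebf2 had the lowest adjusted p of the members in the invading fraction, at a log2 ratio of -0.66 ± 0.07 (SE, adjusted p = 5.58e-06), and its non-invading ratio was -0.52 ± 0.07 (SE, adjusted p = 0.00012). Lss had -0.69 ± 0.18 (SE, adjusted p = 0.00997) in the invading and -0.73 ± 0.18 (SE, adjusted p = 0.00962) in the non-invading fraction. Hmgcs1 (-0.54 and -0.56, adjusted p = 0.077 and 0.0751) and Sqle (-0.51 and -0.45, adjusted p = 0.0263 and 0.0581) passed with higher adjusted p.

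Fasn, Mvd, Mvk and Dhcr7 fell with time in both fractions. Fasn had -0.57 ± 0.09 (SE, adjusted p = 0.000124) in the invading and -0.63 ± 0.09 (SE, adjusted p = 0.000108) in the non-invading fraction, with no overlap of 96 and 72 h in either. Mvd had -0.57 ± 0.11 (SE, adjusted p = 0.000774) in the invading and -0.82 ± 0.11 (SE, adjusted p = 5.99e-05) in the non-invading fraction, and Mvk -0.47 ± 0.12 (SE, adjusted p = 0.00735) and -0.65 ± 0.12 (SE, adjusted p = 0.000943). For Dhcr7 the ratios were -0.33 ± 0.08 (SE, adjusted p = 0.00614) in the invading and -0.61 ± 0.08 (SE, adjusted p = 7.04e-05) in the non-invading fraction. Ebp, at -0.22 and -0.53, had the lowest adjusted p of the members in the non-invading fraction (1.8e-05). Hsd17b7, which had been lower in the invading fraction, had -0.77 ± 0.19 (SE, adjusted p = 0.00808) in the non-invading fraction and -0.34 ± 0.19 (SE, adjusted p = 0.214) in the invading one. Without invading 72 h replicate 2 the invading value of Hsd17b7 was -0.56 and passed (adjusted p = 0.0207).

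**Figure D5:**
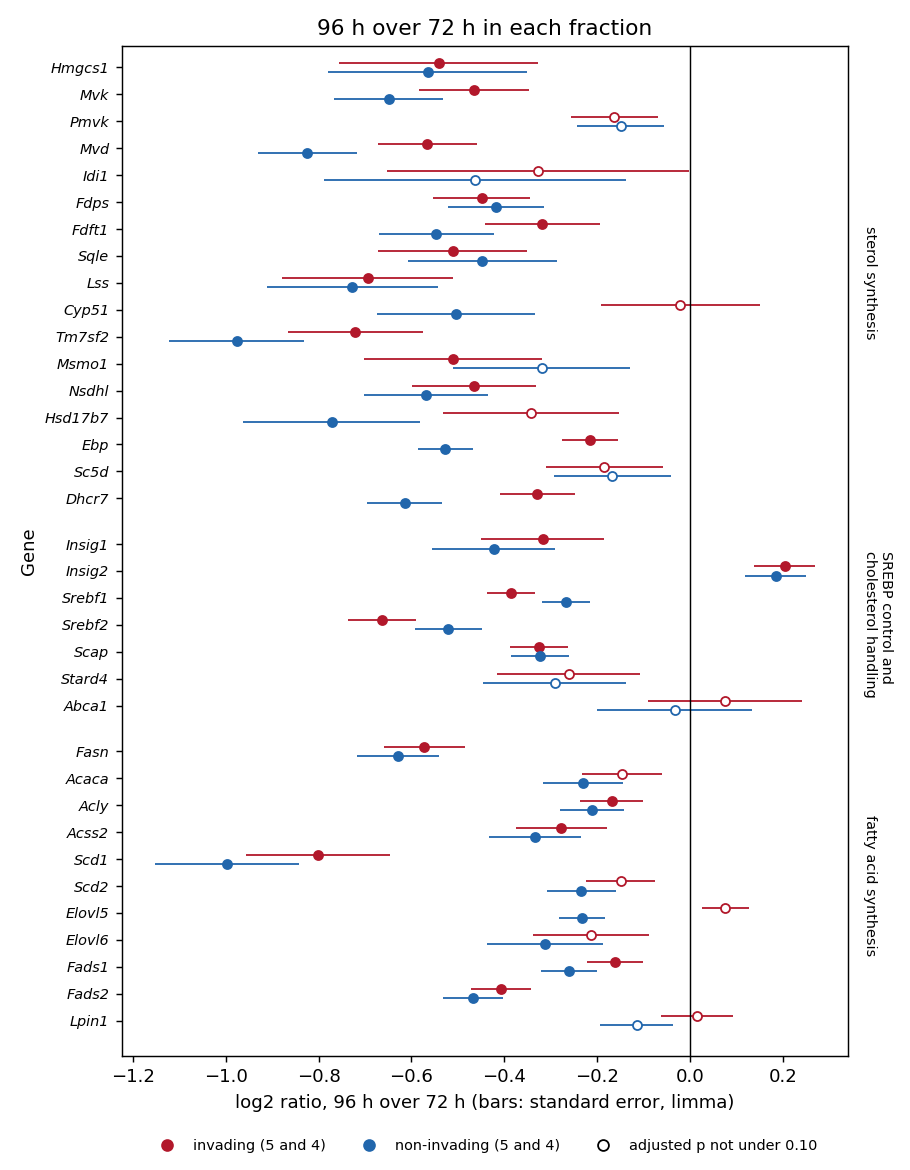
Points give the log2 ratio of 96 h over 72 h for each gene in the invading fraction and in the non-invading fraction (5 and 4 samples each), bars the standard error from limma, and open points an adjusted p that is not under 0.10. All 17 sterol synthesis genes lie left of 0 in both fractions, Insig2 lies right of 0 in both, and Scd1 lies furthest left.

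Several members passed in opposite directions in different comparisons. Srebf1 was higher in the invading fraction but lower at 96 h than at 72 h, with -0.39 ± 0.05 (SE, adjusted p = 3.44e-05) in the invading and -0.27 ± 0.05 (SE, adjusted p = 0.00153) in the non-invading fraction. Insig2 ran the other way, lower in the invading fraction and higher at 96 h, with 0.20 ± 0.07 (SE, adjusted p = 0.0303) and 0.18 ± 0.07 (SE, adjusted p = 0.0572). Insig1 was lower at 96 h in both fractions, with -0.32 ± 0.13 (SE, adjusted p = 0.0933) in the invading and -0.42 ± 0.13 (SE, adjusted p = 0.0319) in the non-invading fraction. Mvk and Mvd, higher in the invading fraction at 96 h, were lower at 96 h than at 72 h in both fractions. Scap fell in both, by 0.33 and 0.32 (adjusted p = 0.00085 and 0.00142). Stard4, Abca1, Idi1, Sc5d, Pmvk and Lpin1 passed in neither fraction. Without invading 72 h replicate 2, Sc5d (-0.32, adjusted p = 0.0487, against -0.18 with all samples) and Stard4 (-0.40, adjusted p = 0.0712, against -0.26) passed in the invading fraction.

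Of the other fatty acid enzymes, Fads2 was lower at 96 h by 0.41 in the invading and 0.47 in the non-invading fraction (adjusted p = 0.000169 and 1e-04), without overlap. Acss2 had -0.28 ± 0.10 (SE, adjusted p = 0.0491) in the invading and -0.33 ± 0.10 (SE, adjusted p = 0.0235) in the non-invading fraction, and Acly -0.17 ± 0.07 (SE, adjusted p = 0.0839) and -0.21 ± 0.07 (SE, adjusted p = 0.0375). Fads1 had -0.16 ± 0.06 (SE, adjusted p = 0.0632) and -0.26 ± 0.06 (SE, adjusted p = 0.0057) in the same order. Scd2, Elovl5, Elovl6 and Acaca were lower in the non-invading fraction, at -0.23, -0.23, -0.31 and -0.23 (adjusted p = 0.0349, 0.00337, 0.091 and 0.0713), and had -0.15, 0.08, -0.21 and -0.15 in the invading fraction, where they did not pass. The difference between the fractions did not pass for any of the 4 (adjusted p = 0.878, 0.21, 0.92 and 0.9 in the same order). In the invading fraction Scd2 passed without 72 h replicate 2 (-0.22, adjusted p = 0.0387) or 96 h replicate 1 (0.0672) and after a further quantile normalisation (-0.24, adjusted p = 0.027), Elovl6 without 96 h replicate 1 (-0.31, adjusted p = 0.0549), and Acaca without 96 h replicate 1 (0.0679), without 72 h replicate 4 (0.076) and after that normalisation (0.0689). The dimmer probe set of Acaca had the opposite sign in the non-invading fraction (0.21, adjusted p = 0.121), and the mean of both probe sets gave -0.01 (adjusted p = 0.95).

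Of the remaining sterol enzymes, Fdps was lower at 96 h by 0.45 in the invading and 0.42 in the non-invading fraction, Nsdhl by 0.47 and 0.57, and Fdft1 by 0.32 and 0.55 (adjusted p from 0.00407 to 0.0723). The dimmer probe set of Fdft1 did not pass in the invading fraction (-0.27, adjusted p = 0.131) and passed in the non-invading one (-0.495, adjusted p = 0.00973). Msmo1 passed in the invading fraction (-0.51 ± 0.19 SE, adjusted p = 0.0609) and had -0.32 in the non-invading one, and Cyp51 passed in the non-invading fraction (-0.50 ± 0.17 SE, adjusted p = 0.0462) and had -0.02 in the invading one. The plot of time ratios gives each of these values with its standard error.

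Single samples decided some calls of the time comparisons. In the invading fraction, samples are named by time and replicate. The call of Hmgcs1 was lost without 96 h replicates 2, 3 or 5 or 72 h replicates 1, 3 or 4 (adjusted p = 0.107 to 0.281), and that of Fads1 without any of the same 6 samples (0.103 to 0.174). Msmo1 lost it without 96 h replicates 2, 3 or 5 or 72 h replicates 3 or 4 (0.11 to 0.197), and Fdft1 without 96 h replicates 2, 4 or 5 or 72 h replicates 3 or 4 (0.108 to 0.265). Acly lost it without 96 h replicates 2, 3, 4 or 5 or 72 h replicates 1 or 3 (0.113 to 0.219), Acss2 without 96 h replicate 1 or 72 h replicate 4 (0.109 to 0.2), and Insig2 without 72 h replicate 4 (0.119). For Insig1 this held for the same 6 invading samples as for Hmgcs1 and for non-invading 96 h replicates 1, 2 and 4 and 72 h replicates 1 and 3, which enter through the shared spread (0.104 to 0.299). In the non-invading fraction, Hmgcs1 lost its call without 96 h replicates 1, 3 or 5 or 72 h replicates 1, 3 or 4 (0.106 to 0.174), Acaca without 96 h replicates 1, 2, 3 or 5 or 72 h replicates 1 or 2 (0.105 to 0.191), and Insig2 without 96 h replicates 2, 3 or 5 or 72 h replicates 1 or 2 (0.101 to 0.172). Sqle lost it without 96 h replicate 5 or 72 h replicates 1, 3 or 4 (0.102 to 0.148), Cyp51 without 96 h replicates 1 or 5 or 72 h replicate 1 (0.103 to 0.111), and Insig1 without 72 h replicate 4 (0.106). Elovl6 lost it without non-invading 96 h replicates 1, 2, 3 or 5 or 72 h replicates 1, 3 or 4, and also without invading 96 h replicates 3 or 4 or 72 h replicates 1 or 3 (0.102 to 0.239). The higher level of Insig2 at 96 h was not called after a further quantile normalisation (adjusted p = 0.162 in the invading and 0.16 in the non-invading fraction).

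The ratio of invading over non-invading samples was also compared between the times, as the difference of both ratios fitted on all 18 samples. At an adjusted p under 0.10 in limma 0 of the 35 genes passed, where 0.015% of all genes did, and 3 members had an unadjusted p under 0.05. The same count of 0 was found under every alternative that was run. Elovl5 had the lowest adjusted p (0.21), with a ratio that was higher at 96 h by 0.31 (standard error 0.07). Ebp followed with 0.31 (adjusted p = 0.272), and Dhcr7 had 0.29 (adjusted p = 0.493). For Cyp51 the difference was 0.48 with a standard error of 0.24, and for Hsd17b7 0.43 with 0.27. A pass at 72 h and none at 96 h, as in Cyp51, Ebp, Dhcr7, Elovl5, Fdft1 and Fads1, was therefore not shown to be a difference between the times.

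Genes beside the path were counted in further lists, which were drawn up together with the members. Between the fractions, 16.7% of all genes were higher in invading samples and 14.7% lower at 96 h, and at 72 h 13% were higher and 13.5% lower. Among genes of sterol uptake, transport and esterification (17 measured), the invading fraction had 10 higher and 2 lower at 96 h and 6 higher and 1 lower at 72 h, with medians of 0.18 and 0.15. Stard3, which moves cholesterol out of late endosomes, had log2 ratios of 0.68 at 96 h and 0.72 at 72 h, and Mylip, the LXR-induced ligase that degrades lipoprotein receptors, 0.31 and 0.48. Osbpl2, a sterol carrier, had 0.28 and 0.35. With time Scarb1, a receptor for high-density lipoprotein, was lower by 0.62 in the invading and 0.66 in the non-invading fraction, and Osbpl2 was higher by 0.44 and 0.52.

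The genes that process SREBP or degrade sterol enzymes (13 measured) gave 6 lower and 0 higher in the invading fraction at 96 h and 6 lower and 1 higher at 72 h. Among them Erlin1, a protein of the complex that degrades sterol enzymes, had -0.42 at 96 h and -0.46 at 72 h, and the ligase Rnf139 -0.37 at both times. At 96 h against 72 h 6 were higher and 0 lower in the invading and 6 higher and 1 lower in the non-invading fraction, which is the opposite direction to most members, with Pgrmc1 at 0.40 and 0.38 and Erlin2 at 0.42 and 0.20. Of all genes 18.2% were higher and 16.7% lower with time in the invading fraction, and 15.4% and 12.2% in the non-invading one. The prenyl and dolichol branches, with 10 genes measured, leave the path at farnesyl diphosphate. In the invading fraction 3 of these were lower and 1 higher at 96 h, and 2 lower and 0 higher at 72 h. Most were not called, and the median was -0.02 at both times. Among those called, Ggps1 was lower at 96 h (-0.42) and 72 h (-0.47) and so was Pggt1b (-0.67 and -0.40). Both were higher at 96 h than at 72 h in both fractions, Ggps1 by 0.42 in the invading and 0.36 in the non-invading and Pggt1b by 0.29 and 0.55. Of the 10, 5 were higher and 1 lower with time in the invading and 5 higher and 2 lower in the non-invading fraction.

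Markers of cell types and of proliferation were counted in the same way, and the shares of all genes apply to them too. Of 9 proliferation genes 2 were higher and 1 lower at 96 h, which is near those shares, and 0 were higher and 4 lower at 72 h. Their median log2 ratio was 0.11 at 96 h, with 7 above 0 and 2 below. At 72 h the median was -0.17, with 1 above 0 and 8 below. Mki67 had the lowest log2 ratio of these genes at both times, -0.44 and -0.63. The summed linear signal of that list ran between 13500 and 15570 for invading and between 12280 and 16510 for non-invading samples at 96 h, and between 12070 and 13700 for invading and between 13670 and 15570 for non-invading samples at 72 h. Of 8 markers of lipid-storing fibroblasts and adipocytes 5 were higher at 96 h and 3 at 72 h, with 0 lower, among them Plin4 (0.59 at both times). Their summed signal ran between 2495 and 2955 for invading and between 1930 and 2247 for non-invading samples at 96 h, and between 2278 and 2680 for invading and between 1804 and 2083 for non-invading samples at 72 h, while Adipoq, a defining adipocyte marker, stayed at or under 5.04 in every sample.

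Of 9 fibroblast markers 3 were lower at both times, the collagen genes Col1a1, Col1a2 and Col3a1 (log2 ratios of -0.35 to -0.20), and Pdgfrb was higher at 72 h (0.27). The summed signal of the fibroblast list ran between 46350 and 51910 for invading and between 48080 and 53740 for non-invading samples at 96 h, and between 43630 and 49260 for invading and between 48020 and 51770 for non-invading samples at 72 h. Of 5 epithelial markers 3 were higher at 96 h and 1 at 72 h, with Krt8 at 0.32 and 0.53, and their summed signal ran between 417.4 and 462.3 for invading and between 341.3 and 416.9 for non-invading samples at 96 h and between 439.7 and 550.0 for invading and between 372.8 and 451.8 for non-invading samples at 72 h. Of 5 leukocyte markers 2 were higher at 96 h, Cd68 by 0.56 and Cd79a by 0.24, and Cd79a was higher at 72 h by 0.39. Their summed signal ran between 312.5 and 402.9 for invading and between 262.1 and 310.8 for non-invading samples at 96 h, and between 353.8 and 437.9 for invading and between 328.5 and 361.8 for non-invading samples at 72 h. The defining markers Epcam, Sftpc and Ptprc stayed under 6 in every sample. None of 4 endothelial markers was called at either time. Of 3 mesothelial markers Msln was lower (-0.63 at 96 h and -0.71 at 72 h), while Upk3b (0.01 and 0.02) and Wt1 (-0.07 and 0.06) did not pass, and the summed signal, most of it from Msln, ran between 900.6 and 1418 for invading and between 1360 and 2033 for non-invading samples at 96 h and between 903.9 and 1275 for invading and between 1418 and 1972 for non-invading samples at 72 h. The part of these differences in the results for the members was not tested.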

How the data were processed

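Total RNA of 18 samples was hybridised to Affymetrix mouse gene expression arrays of the ST type. The deposited values are log2 gene-level signals, which the authors made by RMA with sketch-quantile normalisation in Affymetrix Expression Console 1.2, per the submitters' processing notes and the methods of the study. These log2 values were used as deposited, over 35556 probe sets. Of these, 21789 carry 1 gene symbol in the platform annotation, for 19938 genes, and the brightest probe set by mean signal stood for its gene. Depth has no meaning for arrays, and their number limits the precision.

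Tests used limma 3.58.1 under R 4.3.3. Each time had its own fit for the comparison of the fractions. The times, and the difference of the fraction ratios between times, were compared in 1 fit over 18 samples that used fraction and time as 4 groups, so that all 4 share an estimate of the spread. p-values were adjusted by Benjamini-Hochberg over all probe sets, and an adjusted p under 0.10 was called. Samples are labelled as biological replicates of 1 line, so p-values measure the spread between samples of this line. Whether an invading and a non-invading sample came from the same culture is not stated, and the main fits treat all samples as separate. The members and lists were chosen with earlier results of these data known. All sample values are given for called members with the 8 largest absolute log2 ratios of each comparison, for members called in opposite directions and for the pairs named in the text, and of other lists at most 4 called genes are named.

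The test was run on simulated data in which 100 probe sets were shifted 2-fold and another 100 1.5-fold. There the 96 h comparison of the fractions recovered 97 and 80, the 72 h comparison 91 and 68, and the difference between times 82 and 52, each over 35556 probe sets. Unchanged probe sets called numbered 20, 18 and 21 in the same order. The time comparisons recovered 91 and 87 in the invading and 94 and 85 in the non-invading fraction, with 25 and 41 unchanged ones called. Far fewer probe sets were shifted than were called in the data, so these rates may not carry over to the data. Alternatives were a replicate block, another normalisation or centring, filters, moderation with an intensity trend, an adjusted p under 0.05, the mean of all probe sets of a gene and leaving out each sample. Centring on the probe sets with 1 symbol was chosen after seeing the data. Promoter windows came from RefSeq on build GRCm38.p6, matched by symbol.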

Additional observations from a re-analysis of the deposited data

Results flagged for a closer look

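Within a group, a sample was singled out when its gap to the nearest other sample was a large share of the range of the group (Dixon's criterion at 95%). This held for 8 of 140 pairs of a gene and a group, and chance gives about 1 in 20.

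Srebf2 was highest in invading 96 h replicate 1 (10.01, next 9.84), and Fasn was highest in the same sample (11.06, next 10.76). Srebf1 was highest in non-invading 96 h replicate 2 (8.93, next 8.87). Insig2 was lowest in non-invading 96 h replicate 1 (11.11, next 11.27). Sc5d was lowest in non-invading 96 h replicate 5 (10.01, next 10.19). Scd1 was lowest in non-invading 72 h replicate 2 (10.18, next 10.48), and Fads1 was lowest in that sample too (12.19, next 12.25). Mvk was lowest in non-invading 72 h replicate 3 (9.27, next 9.40).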

How the results depend on the processing

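No member that was called changed its sign under any alternative run, leaving out each sample included. With arrays centred on their median, 7 members and not 4 were higher in the invading fraction at 96 h. The single member higher with time, Insig2, was not called after a further quantile normalisation in either fraction (0 higher), nor with the replicate block or at an adjusted p under 0.05 in the non-invading fraction (0 each). When 1 sample was left out, the members lower in the invading fraction numbered 17 to 19 at 96 h and 16 to 22 at 72 h, and the higher ones 3 to 4 and 2 to 3. Members lower with time numbered 16 to 26 in the invading and 22 to 27 in the non-invading fraction, and the higher ones 0 to 1 in each. The difference of the sterol and fatty acid medians ran from -0.417 to -0.347 at 96 h and from -0.557 to -0.256 at 72 h between the fractions. Between the times it was -0.28 in the invading fraction (-0.348 to -0.171, the last without invading 72 h replicate 4) and -0.286 in the non-invading one (-0.326 to -0.25). Members whose fraction ratio differed between the times numbered 0 throughout.

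The same replicate numbers were used in both fractions. The study compared array levels of other genes with a paired test, but neither it nor the labels say that samples with the same number come from the same culture. Deviations of same-numbered samples over all probe sets correlated at 0.049 to 0.169 at 96 h, where 4 of 5 samples correlated best with their own number, and at -0.075 to 0.087 at 72 h (1 of 4). Among the 17 sterol genes some replicate numbers stood out in both fractions. At 72 h replicate 2 was most often the lowest and replicate 4 the highest, and at 96 h replicate 5 the lowest. The most often highest at 96 h was replicate 1 in invading and replicate 4 in non-invading samples. With the replicate block, 17 members were lower and 3 higher at 96 h, 20 lower and 2 higher at 72 h, 22 lower and 1 higher with time in the invading and 27 lower and 0 higher in the non-invading fraction, and 0 passed for the difference between times. The calls lost under the replicate block were Mvk (adjusted p = 0.127) and Pmvk (0.109) at 96 h, Fads1 (0.134) and Insig2 (0.127) at 72 h and Insig2 in the non-invading fraction (0.117). Lss at 72 h was gained under it (-0.55, adjusted p = 0.0293 and not 0.11), so that 14 and not 13 sterol synthesis genes were lower at 72 h.

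Groups of 4 or 5 samples limit what was detectable, and ratios of dim probe sets are compressed.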

Other observations

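Of lipid genes outside synthesis, fatty acid oxidation genes (19 measured) were higher in the invading fraction for 9 and lower for 1 at 96 h and higher for 8 and lower for 0 at 72 h, with medians of 0.13 and 0.16. Ppard, a nuclear receptor that drives oxidation genes, had 0.53 and 0.58. With time 10 were higher and 3 lower in the invading and 9 higher and 3 lower in the non-invading fraction, among them Etfa (0.66 and 0.58) and Acadm (0.55 and 0.46). Of all genes 18.2% were higher and 16.7% lower with time in the invading fraction. In the non-invading fraction these shares were 15.4% and 12.2%, so that the lower counts are near the share of all genes. Of 20 further genes of fatty acid synthesis and activation, 4 were lower and 3 higher at 96 h and 5 lower and 1 higher at 72 h, where 14.7% of all genes were lower and 16.7% higher at 96 h and 13.5% lower and 13% higher at 72 h, so that the 96 h counts are near the share of all genes. Fads3 had -0.60 and -0.46 and Acsl4 -0.78 at 72 h, while Hacd3, a dehydratase of chain elongation, was higher at 96 h than at 72 h by 0.83 in the invading and 0.76 in the non-invading fraction. Of 21 genes of glycerolipids and lipid droplets 8 were higher and 4 lower at 96 h and 5 higher and 4 lower at 72 h, the lower ones near the share of all genes, among them Fabp5 (-0.68 and -0.61) and the droplet protein Plin3 (0.53 at 72 h).

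The samples of a group that were lowest or highest for one sterol synthesis gene tended to be so for others. Among the 17 genes, 96 h invading replicate 5 was the lowest of its group for 9 and invading replicate 1 the highest for 9, against 14 lowest in non-invading replicate 5 and 14 highest in non-invading replicate 4. At 72 h invading replicate 2 was the lowest for 16 and invading replicate 4 the highest for 13, against 14 lowest in non-invading replicate 2 and 10 highest in non-invading replicate 4. For the 11 fatty acid genes the same samples had, in the same order, 3, 7, 8 and 5 at 96 h and 8, 7, 6 and 3 at 72 h. Most of these samples thus stood out in the fatty acid genes too, but not all. Among these genes, invading replicate 2 was the lowest most often at 96 h (6 genes), ahead of invading replicate 5. At 72 h non-invading replicate 1 was the highest most often (7 genes), ahead of non-invading replicate 4. How often these samples were lowest or highest over all genes was not counted. In 72 h invading replicate 2, Abca1 was the highest of its group at 8.46, and at 96 h it was 8.20 in invading replicate 5 and 7.63 in invading replicate 1, the highest and the lowest of that group. Of the other samples counted here, non-invading 72 h replicate 4, the highest for 10 sterol genes, had the lowest Abca1 of its group (6.91). The rest were not at the opposite end of their group for Abca1. Abca1 was 7.05 in both non-invading 96 h replicates 4 and 5, with the highest value in replicate 3 (7.27). At 72 h its lowest invading value was in replicate 3 (7.54), and its highest non-invading value was in replicate 1 (7.49).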
